A study of Mus musculus with 11 samples.

Results

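Xpc, Ddb2, Polk, Ercc5, Rrm2b and Gadd45a are listed targets of the transcription factor P53 that act in DNA repair and in the supply of nucleotides for it. The 6 genes were chosen by name, of 21887 protein-coding genes on chromosomes 1 to 19, X and Y. For each gene, P53 and WDR5 peaks within 5000 bases of its span and H3K4me3 peaks within 1000 bases of an end of the span were taken from 11 peak lists. The lists came from CUT&RUN, an assay that sequences the DNA cut free by a nuclease tethered to an antibody-bound protein. Mouse embryoid bodies at day 2 of SFEBq differentiation, a serum-free aggregation method, were compared between a Wdr5 knockout (KO), a Wdr5 and p53 double knockout (DKO) and wild type (WT).

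All groups shared an embryonic stem cell background with GFP knocked into Rx, 5% KSR medium, removal of doxycycline at day 0 and 2% matrigel from day 1. KO had 1 list for H3K4me3. DKO and WT each had 1 list for H3K4me3, 2 lists for P53 and 2 lists for WDR5. How the knockouts were made, and whether a line was 1 clone, is not given in the sources used here.

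The H3K4me3 libraries held 22.3 M fragments in KO, 43.2 M in DKO and 34.2 M in WT after filtering, and 918, 6418 and 9836 peaks. The P53 and WDR5 lists rested on 23.9 M to 57.5 M fragments and held 99 to 725 peaks. In DKO WDR5, WT WDR5 and WT P53, list 2 repeated a list 1 summit, to the base, for 75.3% to 80.3% of its peaks, so each pair was read as 1 library. In DKO P53 the share was 10.6%, but 39 of the 42 genes called in list 1 were also called in list 2, and the independence of the pair was not established. Per the file headers, each list 2 was called from an input file named as merged, and no list 1 was. What was merged was not established. The labels name the 2 lists of each P53 and WDR5 group as replicates 1 and 2, but separate libraries were not established. No group was therefore treated as replicated, differences between genotypes have no established replicate check, and no test was made across samples. H3K4me3 was called at 3 of 8 epiblast markers in KO, 8 in DKO and 7 in WT, among them Pou5f1 and Sox2 in all 3. Of 8 anterior neural markers, 0 were called in KO, 1 in DKO (Otx2, which both lists hold) and 2 in WT (Otx2 and Six6), with no peak at Rax, Six3, Lhx2, Hesx1, Pax6 or Sox1. Of 7 fibroblast feeder markers, 0 were called in KO, 0 in DKO and 2 in WT, and of 8 extraembryonic markers 0, 1 and 3. Wdr5 and Trp53, the targeted genes, had an H3K4me3 peak in all 3 libraries, which does not check the deletions.

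P53 is stabilised after DNA damage and activates genes of arrest, death and repair by binding to pairs of half-sites in their promoters and introns. XPC and DDB2 recognise damaged bases in nucleotide excision repair, and ERCC5 (XPG) is the endonuclease that cuts the damaged strand on its downstream side. POLK is a polymerase that copies past lesions, RRM2B (p53R2) is a small subunit of ribonucleotide reductase that supplies deoxynucleotides outside S phase, and GADD45A is a stress-induced protein of repair and cell cycle arrest. Trimethylated lysine 4 of histone H3 (H3K4me3) marks active promoters, often in nucleosomes on both sides of an open start site. WDR5 holds together the MLL and SET1 methyltransferase complexes, which place this mark.

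No P53 or WDR5 peak lay within 5000 bases of any of the 6 genes in any list, whereas H3K4me3 was called at 1 gene in KO, 4 in DKO and 6 in WT. Polk was called in all 3 genotypes. Xpc, Ddb2 and Gadd45a were called in DKO and WT, and Ercc5 and Rrm2b in WT alone. A peak was called at 3.20% of all protein-coding genes in KO, 22.8% in DKO and 35.5% in WT. Of the 7762 genes marked in WT, 8.98% were called in KO and 59.8% in DKO. The pattern of Polk (called in KO and DKO) held for 8.46% of them, that of Xpc, Ddb2 and Gadd45a (DKO without KO) for 51.3%, and that of Ercc5 and Rrm2b (neither) for 39.7%. Of the genes marked in KO, 93.9% were called in DKO. The members' shares of 16.7% and 66.7% were within 1 gene of these, so their missing calls in KO and partial calls in DKO were not set apart from those of marked genes at large.

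**Figure D1:**
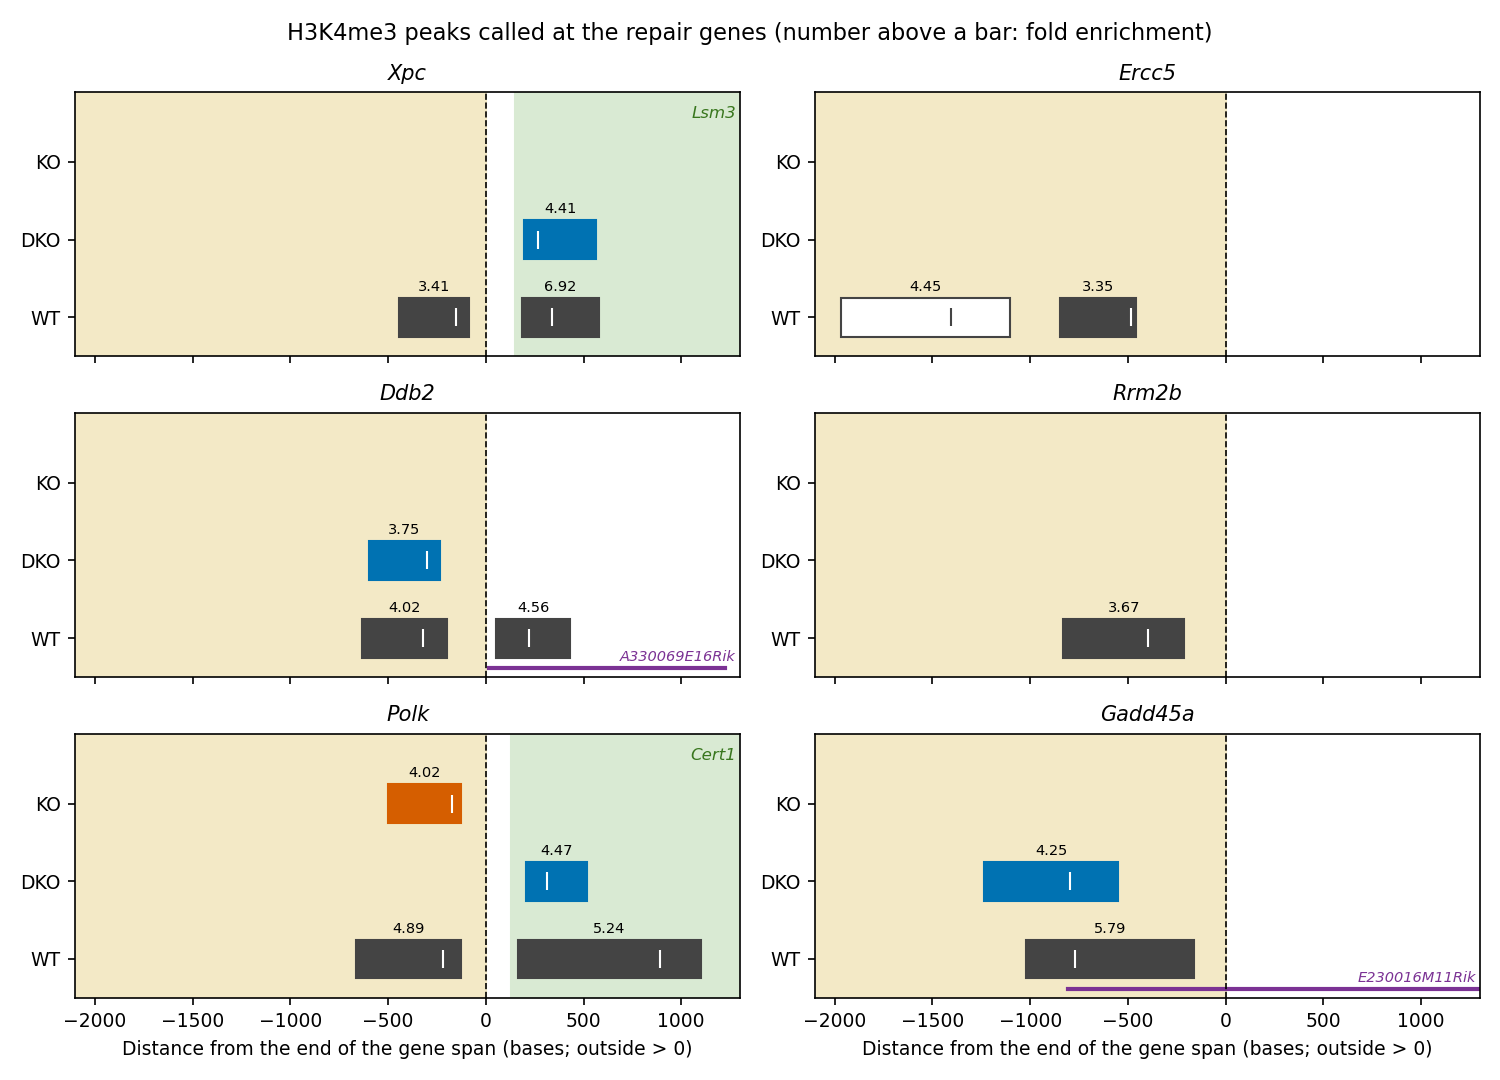
H3K4me3 peaks at the 6 genes in KO, DKO and WT (rows), drawn as bars over the distance in bases from the nearer end of the gene span, with the summit as a tick and the fold enrichment above. Yellow is the gene span, green a neighbouring protein-coding gene, the purple line a long noncoding RNA gene and the open bar an Ercc5 peak beyond the 1000 base window; the DKO peaks at Xpc and Polk lie on the neighbour's side, and the KO peak at Polk on the gene's own side.

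In this plot of peak positions, fold enrichment is the authors' ratio of the fragments at a summit to the background that MACS estimated around it. It describes a peak within its own list. Values of different libraries stand side by side here and were not scaled to each other.

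Of the recognition factors, Xpc (chromosome 6, 91489305 to 91515888, mm10) had no peak in KO. In DKO it had 1 peak, 91516082 to 91516454, with a fold enrichment of 4.41 and a pileup of 35 fragments. In WT it had 2 peaks, one inside the span (91515445 to 91515802) with 3.41 and a pileup of 25 fragments, and one outside it (91516072 to 91516469) with 6.92 and 52 fragments. The outer WT peak was the highest of any member, above 95.6% of all peaks of the WT list, while the inner one was above 11.3%. The DKO peak lay wholly within the outer WT peak, its summit 69 bases away. Both of these lie on Lsm3, an RNA-binding protein gene of the spliceosome whose span begins 147 bases from the end of Xpc, so they cannot be assigned to either gene alone. The inner peak on Xpc itself was not called in KO or DKO.

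Ddb2 (chromosome 2, 91211545 to 91237132) is a P53 target in human cells, while the mouse gene has been described as not activated by P53. It had no peak in KO. In DKO it had 1 peak inside the span, 91236534 to 91236898, with a fold enrichment of 3.75 and 21 fragments. In WT an inner peak (91236498 to 91236935) had 4.02 and 25 fragments, and an outer peak (91237186 to 91237564) had 4.56 and 28 fragments. The DKO peak fell wholly within the inner WT peak with its summit 17 bases away, which is the lower of the WT pair, whereas at Xpc the DKO peak lay under the higher one. The outer WT peak lies on A330069E16Rik, a long noncoding RNA gene.

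Polk (chromosome 13, 96480687 to 96542579) was the one member called in KO, and different flanks were called in KO and DKO. The KO peak, 96542080 to 96542453, lay inside the gene with a fold enrichment of 4.02 and 19 fragments. The DKO peak, 96542786 to 96543099, lay outside it with 4.47 and 30 fragments. WT had both, an inner peak (96541917 to 96542453) with 4.89 and 42 fragments and an outer one (96542745 to 96543678) with 5.24 and 45 fragments. The KO peak ended on the same base as the inner WT peak, and its summit was 44 bases from the WT summit. The DKO summit lay 579 bases from that of the outer WT peak, which was 934 bases wide against 314 in DKO. The outer peaks lie on Cert1, a ceramide transfer protein gene whose span begins 130 bases from the end of Polk. In the KO list the Polk peak was above 18.5% of the peaks, near the low end of what was called. The RefSeq start site of Polk in GRCm38.p6, the assembly of mm10, lies in the gap of 291 bases between the WT peaks. Its promoter is shown because it reaches from that gap into the outer peaks (chr13:96542530-96542829, minus strand, 250 bases before the start and 50 after).

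Polk promoter: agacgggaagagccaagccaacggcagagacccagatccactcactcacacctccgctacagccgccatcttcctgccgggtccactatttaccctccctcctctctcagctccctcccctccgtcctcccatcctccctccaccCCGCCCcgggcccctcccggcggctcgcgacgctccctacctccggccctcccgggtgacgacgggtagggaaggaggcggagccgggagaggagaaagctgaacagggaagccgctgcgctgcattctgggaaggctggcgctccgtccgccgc

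WT peaks covered 85 of its 300 bases, all at the upstream end, DKO peaks 44 and KO peaks 0. It holds 25 CpG, more than 81.6% of the 32851 promoters of the RefSeq table, and 1 GC box (GGGCGG on either strand, in capitals). A GC box was present in 35.7% of all promoters. A second Polk promoter of the table, inside the gene, had no base under an H3K4me3 peak and is not shown.

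Ercc5 (chromosome 1, 44146948 to 44181260) had no peak in KO or DKO, and its peak in WT was the lowest of the members. That peak, 44147407 to 44147794, had a fold enrichment of 3.35 and 17 fragments, where the lowest pileup of any peak of the WT list was 15. It was above 9.03% of the peaks of its list. A higher WT peak, 44148049 to 44148917 with 4.45 and 22 fragments, lay 1101 bases from the span end, just beyond the window, so the highest value of Ercc5 depends on that limit. Among peaks within the window, the farthest was the DKO peak of Gadd45a at 551 bases. The start site of the promoter table lies inside the span, under the first of the WT peaks, which covered all 300 bases of the Ercc5 promoter (chr1:44147494-44147793, plus strand). In DKO the nearest peak lay 28188 bases from a span end of Ercc5, at the ends of Poglut2 and Bivm.

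Ercc5 promoter: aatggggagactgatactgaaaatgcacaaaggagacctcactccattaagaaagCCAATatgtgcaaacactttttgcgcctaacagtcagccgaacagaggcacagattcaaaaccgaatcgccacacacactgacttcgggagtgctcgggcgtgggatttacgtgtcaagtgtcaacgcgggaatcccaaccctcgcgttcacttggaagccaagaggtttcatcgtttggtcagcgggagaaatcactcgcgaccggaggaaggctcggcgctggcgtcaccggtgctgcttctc

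It is shown for being wholly under a WT peak that was called in neither mutant. It holds 21 CpG and 1 CCAAT box (CCAAT on either strand, in capitals), which 37.4% of all promoters have, and no GC box.

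Rrm2b (chromosome 15, 37923952 to 37961119) resembled Ercc5, with no peak in KO or DKO. Its WT peak, 37960289 to 37960904, lay inside the gene 215 bases from the end, with a fold enrichment of 3.67 and 21 fragments, above 20.7% of the peaks of its list. The nearest H3K4me3 peak lay 917081 bases from its span ends in KO and 116377 bases in DKO. By their highest peak in the window, Ercc5 and Rrm2b had the lowest WT values of the members, and both were missing from KO and DKO.

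Gadd45a (chromosome 6, 67035096 to 67037407), the shortest member at 2312 bases, had no peak in KO. Its DKO peak, 67036173 to 67036856, had a fold enrichment of 4.25 and 24 fragments. Its WT peak, 67036384 to 67037244, had 5.79 and 36 fragments, above 85.3% of the peaks of its list. The summits were 24 bases apart, 795 and 771 bases inside the gene, and 69.2% of the DKO peak overlapped the WT peak. Both peaks also lie on E230016M11Rik, a long noncoding RNA gene that overlaps Gadd45a. The Gadd45a promoter (chr6:67037358-67037657, minus strand) lay under no peak, with the edge of the WT peak 163 bases inside the start site. It is shown because it holds an exact P53 half-site without a P53 peak nearby.

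Gadd45a promoter: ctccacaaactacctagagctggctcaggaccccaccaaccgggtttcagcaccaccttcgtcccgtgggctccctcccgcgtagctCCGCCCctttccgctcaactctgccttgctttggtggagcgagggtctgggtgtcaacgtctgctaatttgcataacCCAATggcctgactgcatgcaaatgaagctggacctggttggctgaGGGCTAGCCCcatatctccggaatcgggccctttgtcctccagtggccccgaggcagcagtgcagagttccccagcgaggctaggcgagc

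Capitals mark a GC box, a CCAAT box and the exact P53 half-site, which lies 40 to 31 bases before the start site. An exact P53 half-site was found in 8.36% of all promoters. With 1 mismatch allowed, a half-site was found in 70.0% of them, and a full site of 2 half-sites, 0 to 13 bases apart and with at most 3 mismatches, in 45.1%. The Gadd45a promoter held such full sites, with 2 mismatches at the fewest. The second Polk promoter, which also has an exact half-site, held them too, with 1 mismatch at the fewest. The Polk and Ercc5 promoters shown held neither a half-site with up to 1 mismatch nor a full site. The E-box CACGTG was in 7.15% of all promoters and in none of the 3 shown. These matches describe letters in a window and do not show binding.

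Whether a peak counted at a member's own span changed the DKO count. Peaks that overlapped the own span were called at 1 member in KO, 2 in DKO (Ddb2 and Gadd45a) and 6 in WT, a count chosen after the values were seen. By that stricter rule, 2.67% of all genes were called in KO, 19.1% in DKO and 32.2% in WT, and of the genes called in WT, 8.22% were also called in KO and 54.3% in DKO. Of DKO-marked genes at large, 83.6% had a peak on their own span. Xpc and Polk share their marked end with a protein-coding neighbour within 1000 bases, as did 29.5% of the WT-marked genes. Noncoding genes were not counted as neighbours, though long noncoding RNA genes lie under peaks of Ddb2 and Gadd45a. Of the marked genes with such a neighbour, 10.7% were called in KO and 69.1% in DKO. Of those without, 8.26% were called in KO and 55.8% in DKO.

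Xpc, Ddb2 and Polk had a peak on each side of the span end in WT, with gaps of 269, 250 and 291 bases between the peaks. These were 3 of 6 members, and 17.0% of all WT-marked genes had 2 or more peaks at an end. The share was 28.7% among genes with a protein-coding neighbour within 1000 bases and 12.1% among the others. In KO and DKO each member that was called had 1 peak. Among marked genes, 2 or more peaks were called at 0.428% in KO and 15.7% in DKO.

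**Figure D2:**
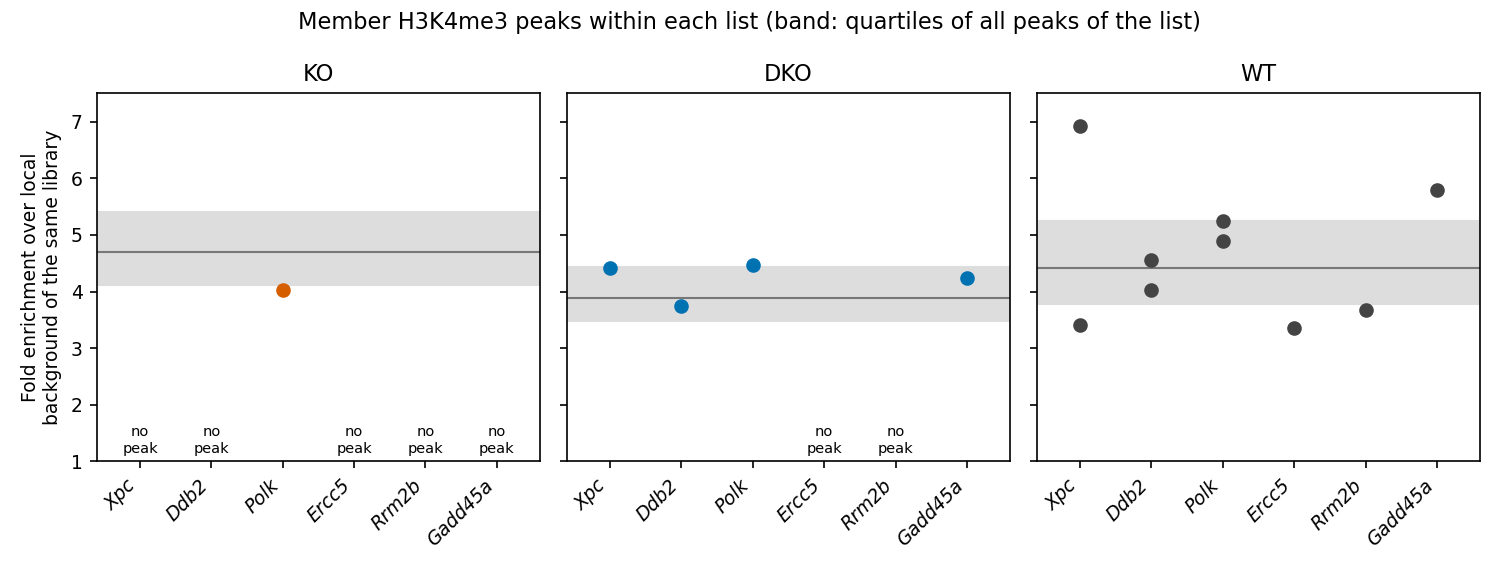
Fold enrichment of each H3K4me3 peak of the 6 genes (points) in KO, DKO and WT, with the quartiles of all peaks of that list as a band and the median as a line. The KO peak of Polk at 4.02 lies under the band of its list, the DKO peaks lie between 3.75 and 4.47, and the WT peaks between 3.35 and 6.92.

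Across members, the order by highest WT fold enrichment was Xpc (6.92), Gadd45a (5.79), Polk (5.24), Ddb2 (4.56), Rrm2b (3.67) and Ercc5 (3.35), with no replicate to say which neighbours in that order differ. The median was 4.90, against 4.72 over all WT-marked genes. By this measure the 4 members called in DKO were the 4 highest in WT. The order rests on peaks beside the genes: the values of Xpc and Polk come from the peaks on Lsm3 and Cert1, and that of Ddb2 from the peak on A330069E16Rik. On the own spans, within the window, the order was Gadd45a (5.79), Polk (4.89), Ddb2 (4.02), Rrm2b (3.67), Xpc (3.41) and Ercc5 (3.35). There Xpc stood below Rrm2b, and the members with a DKO peak on the own span, Gadd45a and Ddb2, were not the 2 highest. The Ercc5 peak of 4.45 just beyond the window was not counted in either order or in the bins below. Counted on the own spans, it would place Ercc5 above Ddb2, Rrm2b and Xpc. WT-marked genes were split by highest WT fold enrichment in the window, neighbours' spans included, into 4 bins of about equal size. The share called in DKO was 35.3% in the lowest bin, which holds Ercc5 and Rrm2b, and 53.9% in the next, which holds Ddb2. It was 67.6% in the bin of Polk and 82.2% in the highest, which holds Xpc and Gadd45a. In KO the shares were 1.65%, 6.34%, 9.43% and 18.5%. Polk was therefore called in KO from the bin below the highest, while Xpc and Gadd45a of the highest bin were not. The KO library was the shallowest and the DKO library the deepest, and DKO held fewer peaks than WT. The part of depth or of list length in the counts was not tested. With each list cut to its 918 peaks of highest fold enrichment, 1 member was called in KO (Polk), 0 in DKO and 1 in WT (Xpc). Such a cut could only remove calls. The highest DKO peak of a member, at Polk, ranked 1545 of 6418, so none could remain in DKO.

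**Figure D3:**
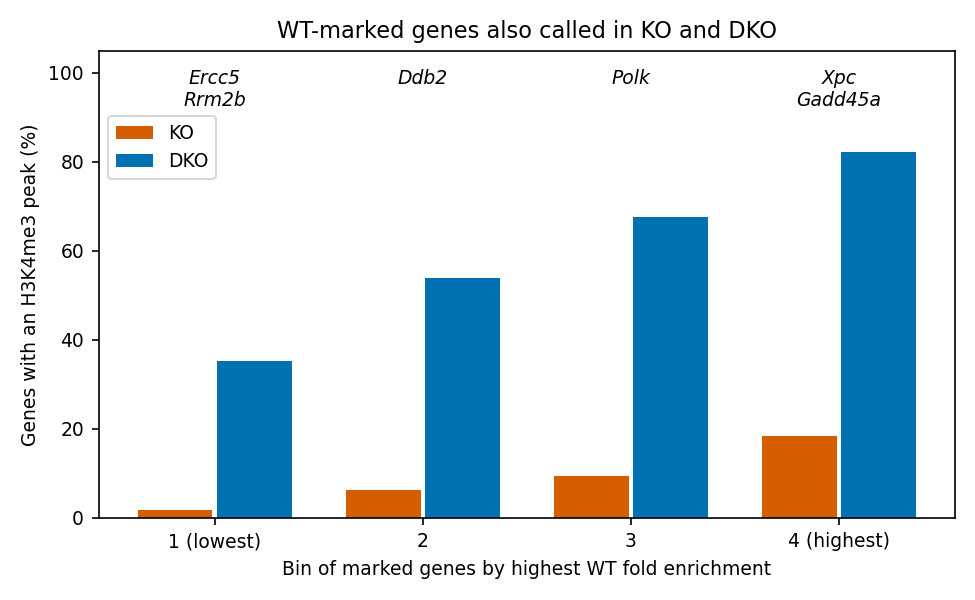
Percent of WT-marked protein-coding genes with an H3K4me3 peak in KO and in DKO (bars), by bin of their highest WT fold enrichment, with the 6 genes named over their bin. The highest bin holds 18.5% called in KO and 82.2% called in DKO, the lowest 1.65% and 35.3%.

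P53 was not detected at any member. No P53 peak lay within 5000 bases in either DKO list or either WT list, and the same held for WDR5. Over all genes, a P53 peak was called in either list at 0.329% in DKO and 0.914% in WT, and a WDR5 peak at 1.05% in DKO and 3.79% in WT, so 0 of 6 is near the background. By list, the shares were 0.192% and 0.315% for DKO P53, 0.905% and 0.567% for WT P53, 1.04% and 0.685% for DKO WDR5, and 3.76% and 2.29% for WT WDR5. In both lists of a pair they were 0.178% (DKO P53), 0.557% (WT P53), 0.681% (DKO WDR5) and 2.26% (WT WDR5). The counts of 0 say that no peak was called at this depth, not that the proteins are absent from these genes.

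The distances were large. In WT the nearest P53 peak lay 1.24 Mb from Gadd45a, 1.50 Mb from Ddb2, 1.53 Mb from Rrm2b, 7.17 Mb from Polk, 8.13 Mb from Ercc5 and 12.1 Mb from Xpc. The value of Polk rests on list 1, and in list 2 it was 13.8 Mb. In DKO the P53 peak nearest to any member lay 7.43 Mb from Ddb2, beginning at 98662250 in both lists. Both DKO WDR5 lists held an overlapping peak, though these cells are labelled as lacking both proteins. For WDR5, the nearest peak in DKO lay 4.13 Mb from Polk. In WT the nearest WDR5 peaks lay 0.500 Mb from Xpc, 0.945 Mb from Polk and 0.946 Mb from Ddb2, and no member had one closer. The Xpc and Polk distances rest on list 1 of WT WDR5. In list 2 the nearest WDR5 peak lay 6.04 Mb from Xpc and 4.13 Mb from Polk.

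**Figure D4:**
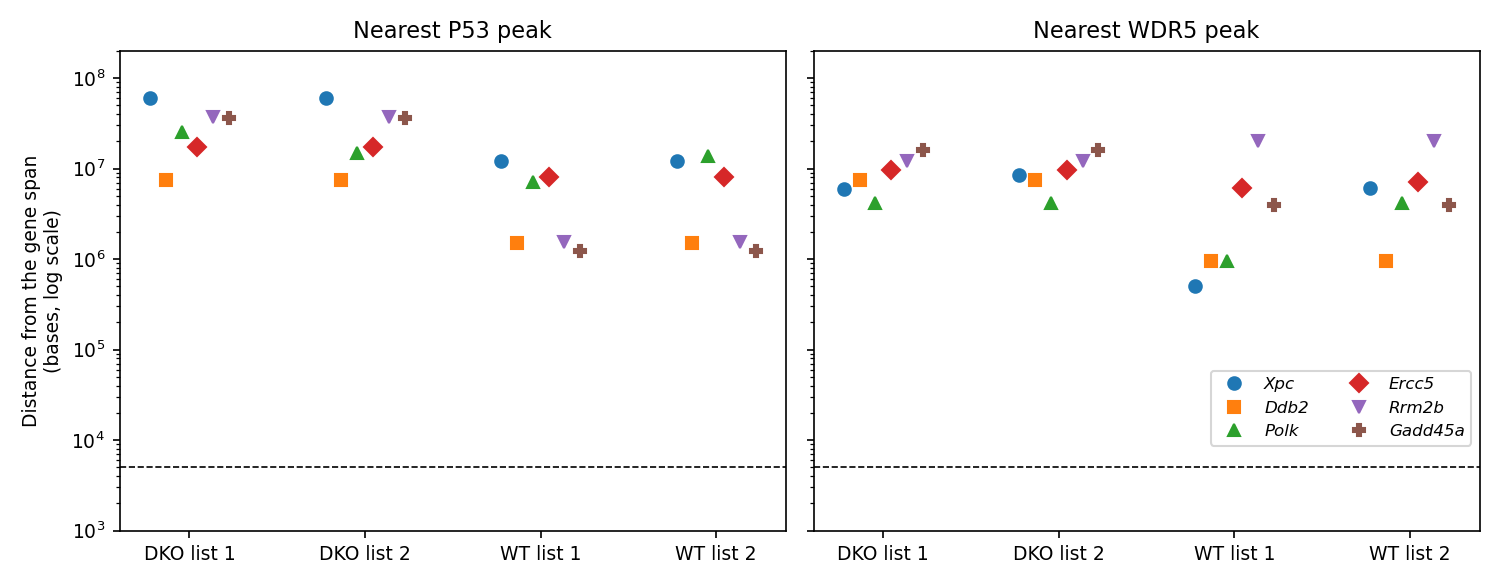
Distance in bases (log scale) from each of the 6 gene spans to the nearest P53 peak (left) and WDR5 peak (right) in the DKO and WT lists. The dashed line is the window of 5000 bases, and every point lies far above it, the closest being Xpc in list 1 of WT WDR5 at 0.500 Mb.

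Other p53 target genes did carry P53 peaks in these lists. Within 5000 bases of the span, 5 of 16 apoptotic targets (Bbc3, Zmat3, Aen, Eda2r and Trp53inp1) and 3 of 18 arrest and feedback targets (Plk2, Cdkn1a and Mdm4) had one in WT, and 0 of either had one in DKO. The peaks at Aen (5.28), Trp53inp1 (4.45) and Cdkn1a (4.76) were called in list 1 of WT alone. In list 2 the counts were 3 of 16 and 2 of 18. Over all genes, a P53 peak was called in either list at 0.914% in WT and 0.329% in DKO. The highest was at Bbc3, the gene of the cell death protein PUMA, with a fold enrichment of 12.8 and 11.7 in the WT lists. The peak in Mdm4, a negative regulator of P53, lay inside the gene with 4.72 and 4.73. Of 29 excision repair genes other than the members, 1 had a P53 peak in WT, namely Cul4a, a cullin of the ubiquitin ligase that contains DDB1 and DDB2. It lay inside Cul4a (chromosome 8, 13139677 to 13140249), at least 7691 bases from an end, with 5.68 and 5.91, and 0 were called in DKO. The 16 translesion and 25 nucleotide supply genes other than members had 0.

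WDR5 peaks near genes of the same pathways lay at Ercc1 and Ercc4, which encode the endonuclease that cuts upstream of the damage, with a WT fold enrichment of 8.39 and 7.52 at Ercc1 and 5.49 in list 1 alone at Ercc4. Neither was called in DKO. Pcna, the sliding clamp, had 4.07 in list 1 of WT. In the nucleotide supply list, Ctps (CTP synthase) was called in both DKO lists, with 5.28 and 4.73, and in both WT lists, with 6.70 and 5.94. A WDR5 peak at Ctps was thus also called in cells labelled as lacking WDR5. Impdh2 had 4.02 in list 1 of WT. Rbx1, a RING subunit of the same ubiquitin ligase, named after its value was seen, had 4.02 in list 1 of DKO and 0 peaks in WT. Among the arrest and feedback targets, Sesn1 had 6.47 and 5.88 in WT.

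**Figure D5:**
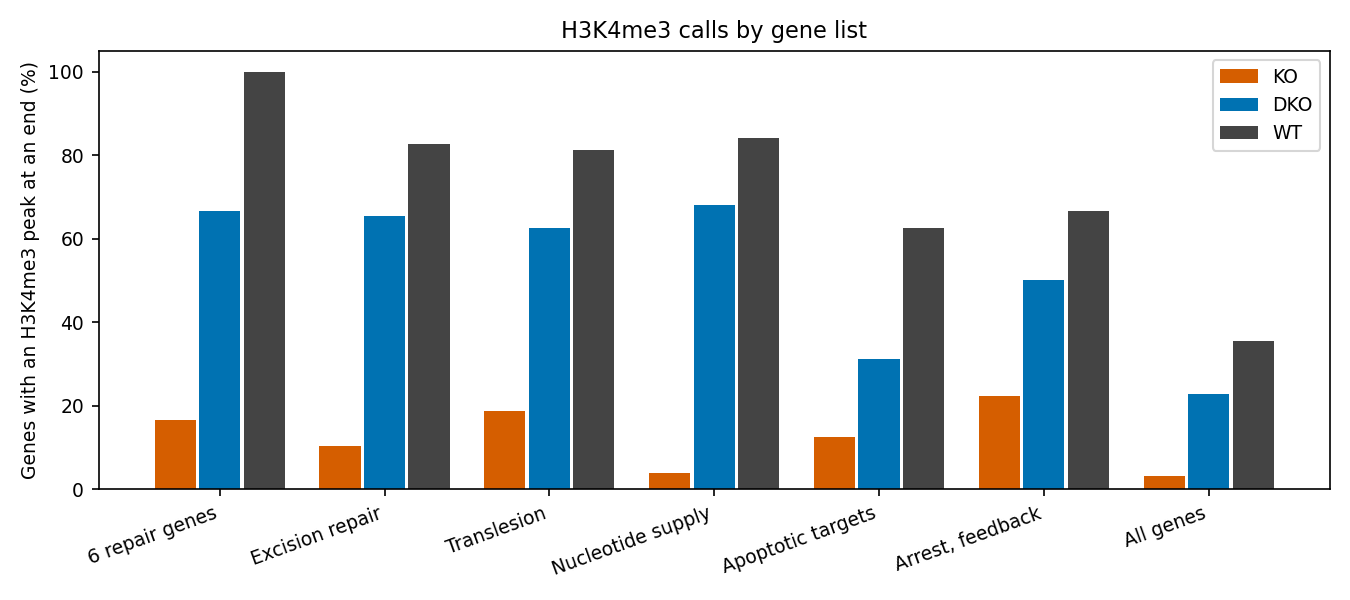
Percent of genes with an H3K4me3 peak at an end in KO, DKO and WT (bars) for the 6 repair genes, for the pathway and p53 target lists without the 6, and for all protein-coding genes. In each list the share is lowest in KO and highest in WT.

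H3K4me3 was called at most genes of the repair pathways in WT. Of the 29 other excision repair genes, 3 were called in KO, 19 in DKO and 24 in WT. Of the 16 other translesion genes the counts were 3, 10 and 13, and of the 25 other nucleotide supply genes 1, 17 and 21. Of the other p53 targets, 2 of 16 apoptotic genes were called in KO, 5 in DKO and 10 in WT, and 4, 9 and 12 of the 18 arrest and feedback genes. Over all protein-coding genes the shares were 3.20% in KO, 22.8% in DKO and 35.5% in WT. Of all WT-marked genes, 8.98% were called in KO and 59.8% in DKO. In the pathway lists, 3 of 24, 3 of 13 and 1 of 21 WT-marked genes were called in KO. In DKO they were 19, 10 and 16. The median highest WT fold enrichment was 5.32, 4.96 and 4.37 in the pathway lists and 4.42 and 4.69 in the target lists, against 4.72 over all marked genes. The excision repair genes called in KO were Rad23b (4.76), a partner of XPC, Ddb1 (4.70), the partner of DDB2, and Cdk7 (3.89), a kinase of TFIIH. In DKO they had 4.22, 4.73 and 5.18, and in WT 4.82, 6.27 and 5.96. Partners of both recognition factors were therefore called in KO where Xpc and Ddb2 were not, a difference that was not tested.

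The translesion genes called in KO beside Polk were Rev1 (5.95), a scaffold of the lesion-bypass polymerases, Pcna (5.16) and Usp1 (4.13), which removes ubiquitin from PCNA. Rev1 had no peak in DKO and 5.91 in WT. Apaf1 (5.07 in KO and 6.88 in WT) and Phlda3 (4.36 in KO and 4.53 in WT), apoptotic targets, also had none in DKO. Of all WT-marked genes, 0.515% were called in KO and not in DKO. Dut, the dUTPase, was the nucleotide supply gene called in KO, with 5.37 in KO, 5.17 in DKO and 7.63 in WT. Mdm2 (5.08), Sesn2 (4.27), Gtse1 (3.81) and Ccng1 (3.73) were the arrest and feedback targets called in KO. Rrm1, Rrm2, Gadd45b and Gadd45g are named as relatives of members, after their values were seen. Rrm1 and Rrm2 encode the main subunits of ribonucleotide reductase, of which Rrm2b is an alternative small subunit. Rrm1 was called in WT alone (4.90), like Rrm2b, whereas Rrm2 was called in DKO (4.41) and WT (3.50). In the Gadd45 family, Gadd45g had 3.33 in DKO and 4.78 in WT, with no peak in KO, and Gadd45b had no peak in any library.

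Likeness to each member was measured over the 11 lists, as the same presence or absence in every list and then the smallest summed difference in highest H3K4me3 fold enrichment, among the 107 other genes of these pathway and target lists. Nearest to Xpc was Rchy1 (4.26 in DKO and 6.77 in WT), to Ddb2 Lig3 (3.91 and 4.66), and to Gadd45a Polq (4.52 and 5.63). Nearest to Polk was Gtse1, with 3.81 in KO, 4.26 in DKO and 5.60 in WT. Nearest to Ercc5 was Cmpk1 (3.53 in WT) and to Rrm2b Ercc3 (3.69 in WT), the TFIIH helicase gene. These patterns were common. Over all protein-coding genes, 3576 had the calls of Xpc, Ddb2 and Gadd45a, 2865 those of Ercc5 and Rrm2b, and 570 those of Polk.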

How the data were processed

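The data were 11 CUT&RUN peak lists, made by the authors from paired-end reads with no control sample. Per the file headers, MACS was version 2.1.2 for list 1 of P53 and WDR5 and 2.1.0.20150731 for all other lists. The q-value limit was 0.01 and the widest local background 10 kb. Bowtie2, SAMtools 1.5, bedtools, HOMER 4.10 and build mm10 stand in the submitters' processing notes, with no role given. The deposited pileup is a coverage signal in fragments, not scaled to depth. The deposited -log10 p and -log10 q and the fold enrichment, a ratio to the local background, are the authors' values for each peak. They were used to describe peaks within a list. Without a control or spike-in, peak numbers follow depth and background as well as binding.

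Mitochondrial peaks (35) were not used. Gene spans and promoters came from RefSeq tables of GRCm38.p6. Promoters of 3 of the 6 genes matched by symbol. Peaks were assigned to spans in Python 3.11.15 with pandas 2.3.3, a step tested on simulated peaks. Motifs were searched on both strands. Members and gene lists were chosen with earlier results of these data known. Besides the 6 genes, those of the pathway and target lists with a P53 or WDR5 peak in WT or an H3K4me3 peak in KO were named, at most 30, with the gene nearest in pattern to each member and neighbours within 1000 bases. A result that the rule would name is not reported here. Windows, list length, the top of each list and leaving out each list were tried as alternatives.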

Additional observations from a re-analysis of the deposited data

How the results depend on the processing

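The counts of members with a P53 or WDR5 peak were 0 in DKO and 0 in WT under all 32 alternatives run for them. These included windows of 1000 and 25000 bases, peaks in both lists, summits and the top 50% of each list. Lists of equal length and leaving out each list (0 to 0 without either) were also among them. Apart from the window of 25000 bases, each could only remove peaks, so a count of 0 could not rise. The closest peak of any list lay 0.500 Mb from a member, beyond that window too. The 32 alternatives therefore add no support. For H3K4me3, the counts of 1 in KO, 4 in DKO and 6 in WT were the same with a window of 5000 bases, with the whole span and with summits. When a peak had to overlap the end base itself, 0 members were called in KO, 0 in DKO and 0 in WT, since every peak lay beside the end. Keeping only the 50% of peaks with the higher fold enrichment left 0 in KO, 3 in DKO and 4 in WT. With lists cut to the 918 peaks of the shortest, 1 was left in KO, 0 in DKO and 1 in WT, Xpc. Both of these cuts could only remove peaks, so the counts could not rise. With peaks on the own span only, chosen after the data were seen, 1, 2 and 6 were left. No paired analysis was possible because no result comes from a test across samples and list 2 of a group was not shown to be a separate library. Depth limits these counts: a gene without a peak may carry a signal below the threshold.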

Other observations

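Within 30 kb of the members, H3K4me3 peaks were also called at ends of other genes. At the facing ends of Chchd4, a mitochondrial import gene, and Tmem43, 15.9 kb or less from Xpc, KO had 1 peak with a fold enrichment of 4.59, DKO 1 with 4.34, and WT 2 with 4.90 and 7.39. A promoter close to Xpc was thus called in KO while Xpc was not. At the ends of Acp2, a lysosomal acid phosphatase gene, and Nr1h3, which encodes the nuclear receptor LXR alpha, KO had none, DKO 1 with 3.50, and WT 2 with 3.59 and 4.14. At the ends of Poglut2 and Bivm near Ercc5, KO had none, DKO 1 with 3.38, and WT 2 with 5.43 and 3.03. The peaks at Pacsin3 (4.59) and between Pacsin3 and Arfgap2 (6.21), near Ddb2, were called in WT and in neither mutant. Apart from these, the peaks within the window and the Ercc5 peak just beyond it, no further peak was listed within 30 kb of any member.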
